A study of Mus musculus with 18 samples.

Results

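The genes described here are 10 transcripts of the central-vein side of the liver lobule and of Wnt signaling, Glul, Oat, Rhbg, Slc1a2, Lect2, Tbx3, Axin2, Rnf43, Znrf3 and Lgr5, taken by gene symbol from a list of Wnt targets and pericentral hepatocyte genes outside the cytochrome P450 family. All 10 were found among the 25266 genes listed for each liver, and all 10 were among the 11090 genes with a mean of at least 0.5 RPKM that entered the tests. RPKM is the number of reads of a gene scaled by its length and by the depth of the library. Liver RNA was sequenced from 18 male C57BL/6J mice to ask how a high fat diet and loss of SAPS3, a regulatory subunit of protein phosphatase 6, alter liver transcripts. FF mice have both alleles of Ppp6r3, which encodes SAPS3, flanked by loxP sites (ppp6r3 fl/fl) and no Cre, and were fed a control diet (FF CD, 4 mice) or a high fat diet (FF HFD, 5 mice). LKO mice have the same floxed alleles and a Cre recombinase driven by the albumin promoter, and were fed the same diets (LKO CD, 4 mice, and LKO HFD, 5 mice). Feeding began at 8 weeks of age and lasted 16 weeks, with 10% of calories from fat in CD and 32.5% in HFD.

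All mice share the floxed alleles, so Cre and the deletion cannot be told apart in a comparison of LKO with FF mice. The albumin promoter drives Cre in hepatocytes, and Ppp6r3 was not measured by cell type here. Ppp6r3 RNA in the livers fell in both LKO groups, by 1.04 under CD and by 0.72 under HFD on the log2(RPKM + 1) scale (limma adjusted p = 6.72e-07 and 7.14e-06), and no LKO liver reached the level of an FF liver on the same diet. The libraries held 23.4 to 37.0 M reads, and the summed RPKM of 6 hepatocyte markers was between 31550 and 49040 in every liver. Alb, at a mean of 29630 RPKM over all livers, made up most of that sum.

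In the hepatic lobule, blood flows from the portal veins to the central vein, and hepatocytes along this path divide their work. Endothelial cells of the central vein secrete Wnt ligands and R-spondin, which stabilize β-catenin in the nearest hepatocytes and switch on glutamine synthesis, ammonium handling and a set of feedback regulators of the pathway itself. Glul, which encodes glutamine synthetase, is restricted to a thin layer of hepatocytes around the central vein and is the classical marker of this zone. In RNA of whole liver, fewer cells of a type and less RNA per cell cannot be told apart.

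The letters before the transcription start were read for the members that RefSeq lists in its GRCm38.p6 promoter table, to show which of them hold the word bound by TCF and LEF, the DNA-binding partners of β-catenin. Of the 10 genes, 6 had an entry, with 7 windows of 250 bases ending at the start (Glul, Oat, Axin2, Slc1a2, Lect2 and 2 starts of Rnf43). Tbx3, Rhbg, Znrf3 and Lgr5 had none. The search took CTTTGAA and its variant CTTTGAT, and likewise the form CTTTGTA and its variant CTTTGTT, on both strands. A word was found in 2 of the 7 windows, and 14.8% of all 32851 windows in the table hold one. Both matches are CTTTGAT on the opposite strand and appear as ATCAAAG in capitals in the sequences that follow, from 32 to 26 bases before the start of Lect2 and from 207 to 201 bases before the start of Slc1a2. The Slc1a2 window, at chr2:102706188-102706437 on the plus strand, lies inside the annotated gene, before a start other than its first. The Lect2 window is chr13:56548539-56548788 on the minus strand. The window of Glul, chr1:153899679-153899928 on the plus strand, is shown beside them as that of the defining pericentral gene and holds none of the 4 words.
Lect2: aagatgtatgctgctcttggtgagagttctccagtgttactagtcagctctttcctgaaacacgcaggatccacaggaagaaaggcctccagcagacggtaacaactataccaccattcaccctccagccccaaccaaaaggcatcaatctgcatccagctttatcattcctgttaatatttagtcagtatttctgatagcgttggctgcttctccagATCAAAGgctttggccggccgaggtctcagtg
Slc1a2: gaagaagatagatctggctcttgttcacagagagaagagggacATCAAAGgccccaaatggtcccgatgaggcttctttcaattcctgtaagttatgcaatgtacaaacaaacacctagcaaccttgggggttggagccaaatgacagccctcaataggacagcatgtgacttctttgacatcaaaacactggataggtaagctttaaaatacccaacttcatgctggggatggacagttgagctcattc
Glul: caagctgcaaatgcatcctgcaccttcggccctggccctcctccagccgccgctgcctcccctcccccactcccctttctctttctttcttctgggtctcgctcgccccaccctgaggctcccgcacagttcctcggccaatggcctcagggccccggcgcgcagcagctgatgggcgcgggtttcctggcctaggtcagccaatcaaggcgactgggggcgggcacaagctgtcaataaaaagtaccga

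The 10 genes covered a wide range of levels. Over the 18 livers the median was 405 RPKM for Glul and 269 RPKM for Oat, the mitochondrial ornithine aminotransferase that feeds ornithine carbon toward glutamate. Lect2, a secreted hepatokine, followed at 95.7 RPKM. Below them came Slc1a2, the glutamate transporter GLT-1, at 11.8 RPKM, and Tbx3, a T-box transcriptional repressor, at 7.81 RPKM. The feedback regulators were lower. Rnf43 and Znrf3, membrane ubiquitin ligases that remove Wnt receptors from the cell surface, had medians of 3.92 and 1.22 RPKM, and Axin2, a scaffold of the β-catenin destruction complex, had 1.69 RPKM. Rhbg, an ammonium transporter of the Rh family, was at 1.71 RPKM, and Lgr5, a receptor for R-spondins, at 0.937 RPKM. Glul was above Oat in 17 of 18 livers and Slc1a2 above Tbx3 in 13 of 18. The order of Rhbg and Axin2 was not resolved, since Rhbg was the higher in 9 of 18 livers.

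**Figure D1:**
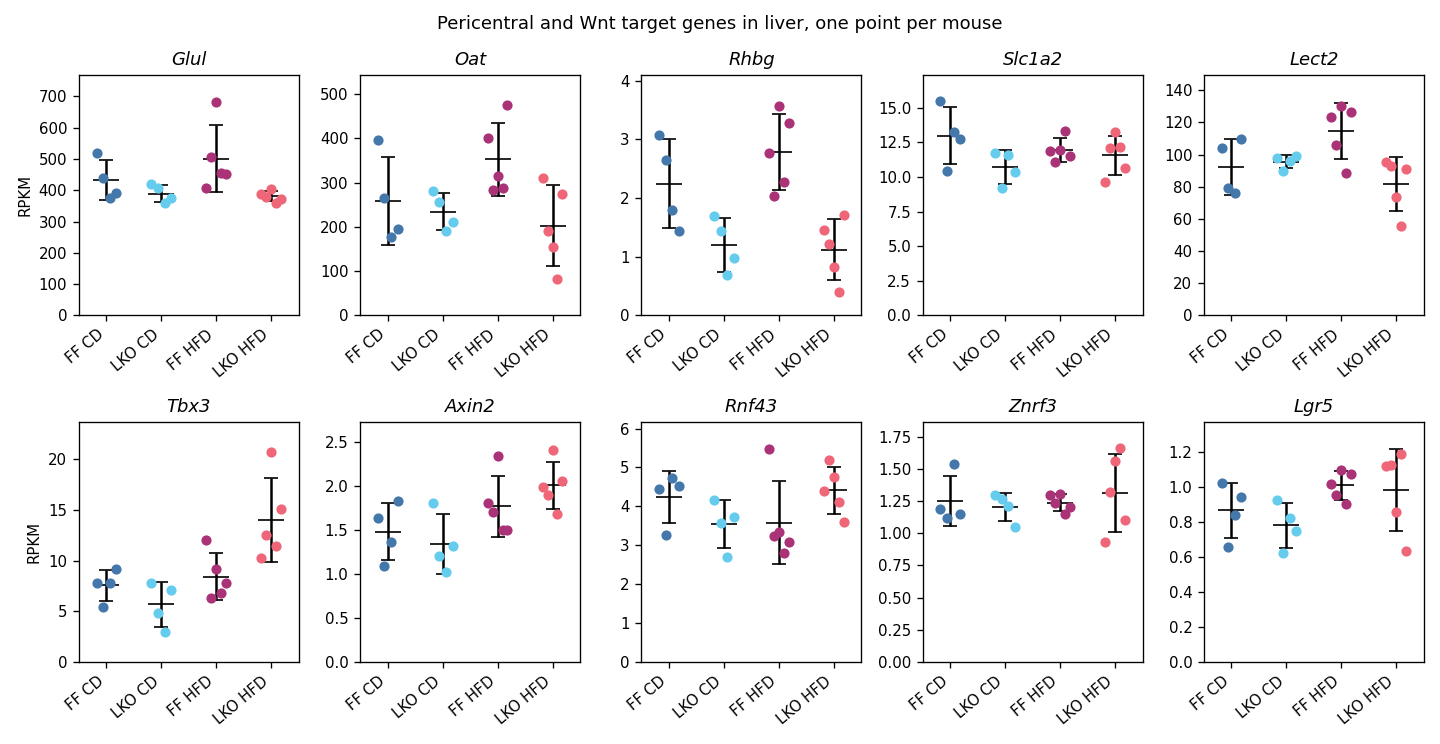
RPKM of each of the 10 genes (vertical axes, each starting at 0) in each liver of the 4 groups, with 1 point per mouse and bars for the mean ± SD. The 5 LKO HFD livers sit below every FF HFD liver for Rhbg and Glul, and above every LKO CD liver for Tbx3.

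Under HFD, Rhbg was lower in LKO than in FF livers. Its RPKM was 2.77, 2.03, 3.57, 2.28 and 3.28 in FF HFD mice 1 to 5 and 1.45, 1.22, 0.821, 0.392 and 1.71 in LKO HFD mice 1 to 5. Every LKO HFD liver was below every FF HFD liver. The mean was 2.79 ± 0.649 (SD, n = 5) in FF HFD and 1.12 ± 0.522 (SD, n = 5) in LKO HFD livers, a ratio of 0.402. On the log2(RPKM + 1) scale, which understates the change of a gene this low, the difference was -0.86 (standard error 0.185, 95% interval -1.25 to -0.47, limma adjusted p = 0.0138). Rhbg was the only 1 of the 10 genes past both thresholds, a fold above 1.5 and an adjusted p under 0.05, in this comparison, where 2.07% of all tested genes passed and 1.17% passed as lower. With a pseudocount of 0.1 in place of 1 the difference was -1.35 (adjusted p = 0.0225).

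Rhbg lies on the minus strand of chromosome 3 (GRCm38, 88242874 to 88254709), and its low RPKM rest on few reads. The reads recovered from the single-read step of each library were 196, 101, 179, 121 and 158 in FF HFD mice 1 to 5 and 69, 58, 53, 19 and 80 in LKO HFD mice 1 to 5. The 19 reads of LKO HFD mouse 4 have an exact Poisson 95% interval of 11.4 to 29.7 reads, which covers counting error only. Leaving out any 1 of the mice, the difference stayed between -0.96 and -0.72 on the log2 scale, with an adjusted p from 0.0106 to 0.0459. The summed hepatocyte markers overlapped between the groups, at 34570 to 44300 RPKM in FF HFD and 37390 to 45210 RPKM in LKO HFD livers. Alb made up most of these sums. Of the 6 markers, 2 were called, where 2.07% of all tested genes were. Fgb and Apoa1 were higher in LKO HFD livers (0.91 and 0.64 on the log2 scale, limma adjusted p = 0.000957 and 0.0169). Ttr and Tat had values below 0 (-0.22 and -0.27, limma adjusted p = 0.173 and 0.659), and the median of the 6 was 0.038. Among 7 stellate cell markers, 2 were called, where 2.07% of all tested genes were. The collagen genes Col1a1 and Col3a1 were lower (-1.15 and -1.24, limma adjusted p = 0.0157 and 0.0109). The 7 markers summed to 75.1 to 116.5 RPKM in FF HFD and 52.8 to 104.2 RPKM in LKO HFD livers. Dcn, at a mean of 64.4 RPKM over all livers, made up most of these sums. All 6 sinusoidal endothelial markers had values below 0 for this comparison, with a median of -0.38 and none called in limma. Of the 6, 4 had an unadjusted p under 0.05, against 19.3% of all tested genes. Their sums were 35.8 to 57.7 RPKM in FF HFD and 28.9 to 38.4 RPKM in LKO HFD livers. The part of these markers in the result was not tested.

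On CD the same direction was measured for Rhbg without passing the test. Its RPKM was 3.08, 2.65, 1.79 and 1.44 in FF CD mice 1 to 4 and 1.70, 1.43, 0.679 and 0.980 in LKO CD mice 1 to 4. The groups overlapped, since LKO CD mouse 1 was above FF CD mouse 4. The ratio of the means was 0.534 and the difference -0.55 on the log2 scale (95% interval -0.99 to -0.12, unadjusted p = 0.0152, limma adjusted p = 0.452). The difference between the genotype effects of the 2 diets was -0.30 (95% interval -0.89 to 0.28, limma adjusted p = 0.625), so an effect of like size under both diets lies within the error.

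Glul was below FF HFD in every LKO HFD liver but did not pass the adjusted test. It was 408, 505, 683, 456 and 453 RPKM in FF HFD mice 1 to 5 and 387, 379, 404, 361 and 373 RPKM in LKO HFD mice 1 to 5. The LKO HFD livers lay close together, with an SD of 16.2 RPKM around a mean of 381 RPKM, whereas the FF HFD livers had an SD of 107 RPKM around 501 RPKM, with mouse 3 the highest of all 18. The difference was -0.37 (95% interval -0.63 to -0.12, limma adjusted p = 0.0936). Glul and Rhbg were 2 of the 10 genes without overlap between the genotypes under HFD, against 4.67% of all tested genes. With 1 mouse left out, the difference of Glul ranged from -0.44 without FF HFD mouse 1 to -0.25 without FF HFD mouse 3.

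Oat and Lect2 were also lower on average in LKO HFD than in FF HFD livers, with overlap and without passing the adjusted test. Oat was 401, 284, 314, 287 and 475 RPKM in FF HFD mice 1 to 5 and 310.0, 192, 155, 83.1 and 274 RPKM in LKO HFD mice 1 to 5. LKO HFD mouse 1 reached the FF range and LKO HFD mouse 4 had the lowest Oat of all 18 livers. The difference was -0.90 (95% interval -1.52 to -0.29, limma adjusted p = 0.0889), a ratio of means of 0.576. With 1 mouse left out it ranged from -1.09 (adjusted p = 0.0318) without LKO HFD mouse 1 to -0.62 (adjusted p = 0.208) without LKO HFD mouse 4, and with quantile normalization it was -0.91 (adjusted p = 0.0487).

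Lect2 was 123, 106, 130.0, 88.5 and 126 RPKM in FF HFD mice 1 to 5 and 95.4, 92.7, 73.8, 55.6 and 90.7 RPKM in LKO HFD mice 1 to 5. Only FF HFD mouse 4 lay within the LKO range. The difference was -0.50 (95% interval -0.81 to -0.19, limma adjusted p = 0.0651), and ranged from -0.59 (adjusted p = 0.0451) without FF HFD mouse 4 to -0.37 without LKO HFD mouse 4, with an adjusted p of up to 0.158 over all omissions. Of the 10 genes, 5 had an unadjusted p under 0.05 between the genotypes under HFD (Rhbg, Lect2, Oat and Glul lower, Tbx3 higher), against 19.3% of all tested genes.

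Slc1a2, like Glul a gene of glutamate uptake and use, did not follow them. It ranged from 11.1 to 13.3 RPKM in FF HFD and from 9.67 to 13.2 RPKM in LKO HFD livers, with a difference of -0.050 (95% interval -0.26 to 0.16, limma adjusted p = 0.826). On CD it was 15.5, 10.4, 13.3 and 12.8 RPKM in FF mice 1 to 4 and 11.8, 9.17, 11.6 and 10.4 RPKM in LKO mice 1 to 4. Those groups overlapped, and the difference of -0.25 had an unadjusted p of 0.0416 and an adjusted p of 0.613 in limma.

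**Figure D2:**
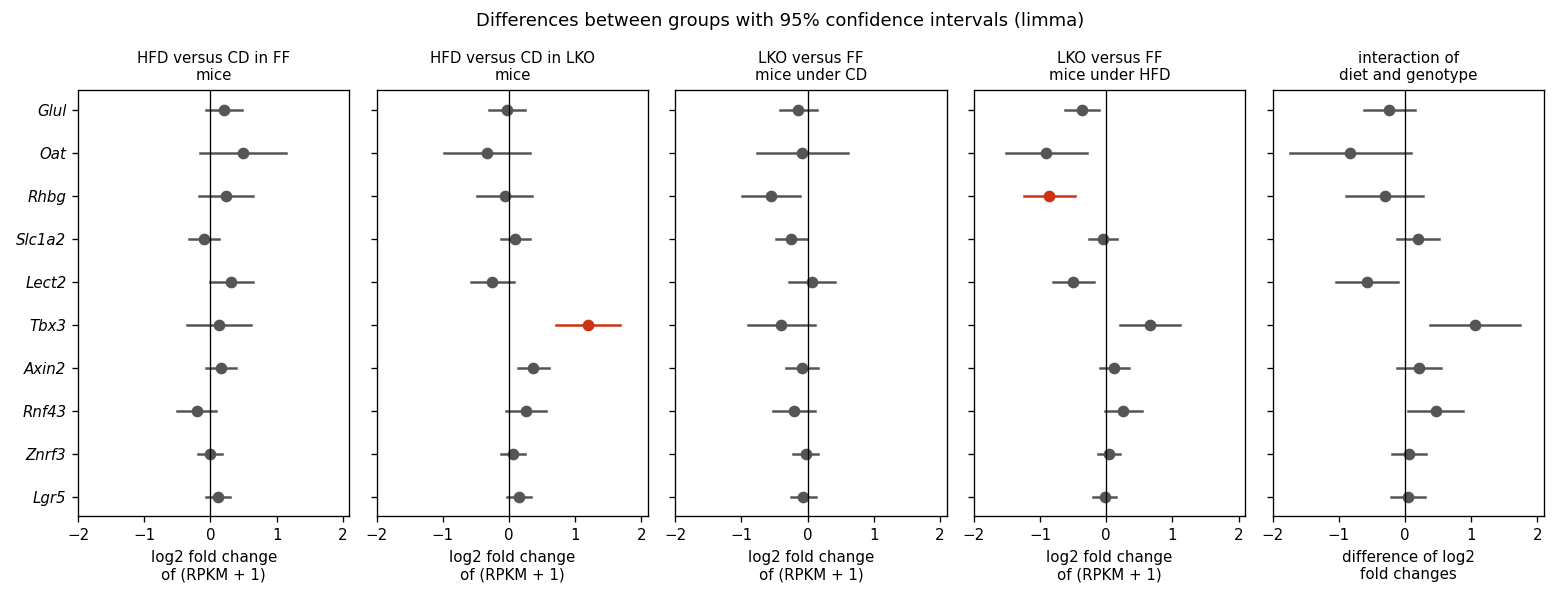
Log2 fold changes of RPKM + 1 (horizontal axes) of the 10 genes in the 4 comparisons of groups, and the difference between the diet effects of the genotypes in the right panel, with 95% confidence intervals from limma. Red marks the differences past both thresholds, Rhbg at -0.86 between LKO and FF mice under HFD and Tbx3 at 1.19 between HFD and CD in LKO mice.

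Among the regulators of the pathway, Tbx3 rose with HFD in LKO mice. Its RPKM was 7.83, 4.86, 3.00 and 7.15 in LKO CD mice 1 to 4 and 10.3, 12.54, 20.7, 11.5 and 15.1 in LKO HFD mice 1 to 5. Tbx3 was the 1 gene of the 10 without overlap between these groups, against 9.04% of all tested genes, with LKO HFD mouse 3 the highest and LKO CD mouse 3 the lowest of all 18. The mean was 5.71 ± 2.21 (SD, n = 4) on CD and 14.01 ± 4.12 (SD, n = 5) on HFD, a ratio of 2.45. On the log2 scale the difference was 1.19 (standard error 0.230, 95% interval 0.71 to 1.67, limma adjusted p = 0.0170). Tbx3 was the only 1 of the 10 genes past the thresholds between the diets in LKO mice, where 1.27% of all tested genes passed and 0.965% passed as higher.

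The call for Tbx3 depended on single livers. Without LKO CD mouse 3 the difference was 0.96 (adjusted p = 0.0624), without LKO HFD mouse 3 it was 1.05 (adjusted p = 0.0593), and with only the 2 LKO groups in the fit the adjusted p was 0.0543. The summed sinusoidal endothelial markers were 11.1 to 30.3 RPKM in LKO CD and 28.9 to 38.4 RPKM in LKO HFD livers, and the summed Kupffer cell markers 24.0 to 36.3 and 35.7 to 66.2 RPKM. An unadjusted p under 0.05 was found for 4 of 6 sinusoidal endothelial and 4 of 6 Kupffer cell markers, against 22.3% of all tested genes. The median differences were 0.50 and 0.51. Of these 12 markers Clec4f alone was called between the diets in LKO mice, where 1.27% of all tested genes were. It was higher by 0.80 (limma adjusted p = 0.0291), and the part of the 12 markers in the result was not tested.

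In FF mice the levels of Tbx3 on both diets overlapped, at 7.79, 5.48, 7.75 and 9.19 RPKM in FF CD mice 1 to 4 and 12.0, 6.33, 9.19, 6.80 and 7.80 RPKM in FF HFD mice 1 to 5. The diet difference in FF mice was 0.13 (95% interval -0.36 to 0.61, limma adjusted p = 0.744). The diet effects of the genotypes differed by 1.06 (95% interval 0.38 to 1.74), which had an unadjusted p of 0.00431 and an adjusted p of 0.0923 in limma. Without FF HFD mouse 1, the FF HFD liver with the highest Tbx3, that difference was 1.18 (adjusted p = 0.0483), and without LKO CD mouse 3 it was 0.83, with an adjusted p of up to 0.1895 over all omissions. Under HFD itself, the difference between LKO and FF livers was 0.66 (95% interval 0.21 to 1.12, limma adjusted p = 0.0938), with 0.79 (adjusted p = 0.0462) without FF HFD mouse 1 and 0.52 (adjusted p = 0.259) without LKO HFD mouse 3.

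Axin2, the classical transcriptional readout of Wnt signaling, was 1.81, 1.21, 1.02 and 1.32 RPKM in LKO CD mice 1 to 4 and 1.99, 1.90, 2.41, 1.68 and 2.05 RPKM in LKO HFD mice 1 to 5. LKO CD mouse 1 overlapped with the HFD livers, and the others were below all of them. The ratio of means was 1.497 and the difference 0.37 (95% interval 0.13 to 0.60, unadjusted p = 0.00396, limma adjusted p = 0.0679). In FF mice it was 1.64, 1.09, 1.36 and 1.83 RPKM on CD and 1.80, 1.70, 2.34, 1.498 and 1.499 RPKM on HFD, a difference of 0.16 (95% interval -0.07 to 0.39, limma adjusted p = 0.338). Between the genotypes Axin2 differed by -0.086 under CD (adjusted p = 0.940) and 0.12 under HFD (limma adjusted p = 0.550), within the spread of the mice. Whole reads of Axin2 numbered 116 to 347 per liver. Tbx3 and Axin2 were 2 of the 10 genes with an unadjusted p under 0.05 between the diets in LKO mice, against 22.3% of all tested genes.

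Rnf43 was 4.44, 3.25, 4.73 and 4.52 RPKM in FF CD mice 1 to 4 and 5.47, 3.23, 3.33, 2.79 and 3.09 RPKM in FF HFD mice 1 to 5. Mouse 1 was the highest of all 18 livers, and the other 4 FF HFD livers were at most 3.33 RPKM, near the lowest FF CD liver. In LKO mice it was 4.17, 3.58, 2.71 and 3.72 RPKM on CD and 4.39, 5.19, 4.76, 4.12 and 3.61 RPKM on HFD. The diet difference was -0.21 in FF mice and 0.26 in LKO mice (limma adjusted p = 0.318 and 0.298). The difference between those effects was 0.47 (95% interval 0.05 to 0.89, unadjusted p = 0.0313, limma adjusted p = 0.2495), with 0.60 (adjusted p = 0.0477) without FF HFD mouse 1 and 0.37 without LKO CD mouse 3, and an adjusted p of up to 0.424 over all omissions. Without FF HFD mouse 1 the diet difference in FF mice was -0.34 (adjusted p = 0.0461), which is below a fold of 1.5.

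Its partner Znrf3 stayed between 0.936 and 1.66 RPKM in all 18 livers. Its 4 differences between groups were from -0.026 to 0.062 on the log2 scale, with 95% intervals from -0.22 to 0.24 at the widest. Lgr5 was between 0.625 and 1.19 RPKM, on 73 to 177 whole reads per liver. The largest of its 4 differences between groups was 0.15 between the diets in LKO mice (95% interval -0.03 to 0.33, limma adjusted p = 0.317).

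In FF mice the diet alone moved none of the 10 genes past the thresholds in limma, where 6.60% of all tested genes passed. None had an unadjusted p under 0.05 either, against 33.7% of all tested genes. The largest value was that of Oat, at 396, 265, 176 and 196 RPKM in FF CD mice 1 to 4 against the HFD values above, a difference of 0.49 with a 95% interval from -0.16 to 1.14 (limma adjusted p = 0.284). Lect2 was 104, 79.0, 76.0 and 109.9 RPKM in FF CD mice 1 to 4, and its diet difference was 0.32 (95% interval -0.01 to 0.65, limma adjusted p = 0.167). Glul was 519, 439.7, 377 and 392 RPKM in FF CD mice 1 to 4, and its diet difference was 0.20 (95% interval -0.07 to 0.47, limma adjusted p = 0.293), or 0.084 without FF HFD mouse 3. With a mouse left out, Oat ranged from 0.33 to 0.72 and Lect2 from 0.23 to 0.41.

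In LKO mice the same 3 genes had values near or below 0 for the diet difference, with -0.33 for Oat, -0.25 for Lect2 and -0.031 for Glul (limma adjusted p = 0.562, 0.366 and 0.915). Without LKO HFD mouse 4 the values of Oat and Lect2 were -0.047 and -0.12. LKO CD mice 1 to 4 had 282, 256, 189.7 and 210.0 RPKM of Oat, 97.7, 89.5, 96.0 and 99.2 RPKM of Lect2 and 419.7, 406, 359 and 374 RPKM of Glul. The diet effects of the genotypes differed by -0.57 for Lect2 (95% interval -1.04 to -0.10, unadjusted p = 0.0200, limma adjusted p = 0.201) and by -0.82 for Oat (95% interval -1.74 to 0.10, adjusted p = 0.367). None of the 10 genes passed the thresholds for a difference between the diet effects in limma, where 2.44% of all tested genes passed. Lect2, Tbx3 and Rnf43 had an unadjusted p under 0.05, 3 of 10 against 16.5% of all tested genes.

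Under CD the genotypes differed in none of the 10 genes past the thresholds in limma, where 0.225% of all tested genes passed. Rhbg and Slc1a2 had an unadjusted p under 0.05, 2 of 10 against 7.67% of all tested genes. The other 8 lay between -0.40 for Tbx3 (95% interval -0.91 to 0.11) and 0.069 for Lect2 (95% interval -0.28 to 0.42).

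The 10 genes did not vary as 1 unit among the livers. Over the 18 mice, Pearson's r of log2(RPKM + 1) was 0.85 between Oat and Rhbg, 0.81 between Oat and Lect2 and 0.67 between Rhbg and Lect2. It was 0.85 between Axin2 and Tbx3 and 0.65 between Tbx3 and Rnf43. After subtraction of the group means the same 5 values were 0.87, 0.70, 0.55, 0.74 and 0.68. Between Oat, Rhbg and Lect2 on one side and Axin2, Tbx3 and Rnf43 on the other, r was from -0.17 (Oat and Rnf43) to 0.16 (Axin2 and Lect2), and reached 0.49 for Axin2 and Lect2 after subtraction of the group means. Glul, in neither set, had r of 0.74 with Rhbg and 0.53 with each of Oat and Lect2. With Axin2, Tbx3 and Rnf43 its r was 0.29, -0.084 and -0.28. After that subtraction these were 0.50, 0.23, 0.24, 0.52, 0.070 and -0.14. Znrf3 had r of -0.59, -0.50 and -0.30 with Oat, Lect2 and Rhbg, and 0.17, 0.30 and 0.32 with Axin2, Tbx3 and Rnf43. The sets were picked after their values were seen, the values of a pair share a library and its depth, and r is given as a description.

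Single livers differed in how the genes stood together. LKO HFD mouse 4 had the lowest Oat, Rhbg and Lect2 of all 18, at -1.55, -1.19 and -0.70 relative to the FF CD mean on the log2 scale, while its Tbx3 was at 0.56. LKO HFD mouse 3 had the highest Tbx3 and Axin2, at 1.36 and 0.47, while its Oat and Rhbg were at -0.66 and -0.80. LKO CD mouse 3 had the lowest Tbx3, Axin2 and Rnf43, at -1.08, -0.29 and -0.49, and its Rhbg and Oat were also below the FF CD mean, at -0.92 and -0.37. FF HFD mouse 1 was above that mean in both sets, with Oat at 0.71, Lect2 at 0.43, Tbx3 at 0.62 and Rnf43 at 0.31. These livers were picked after their values were seen.

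**Figure D3:**
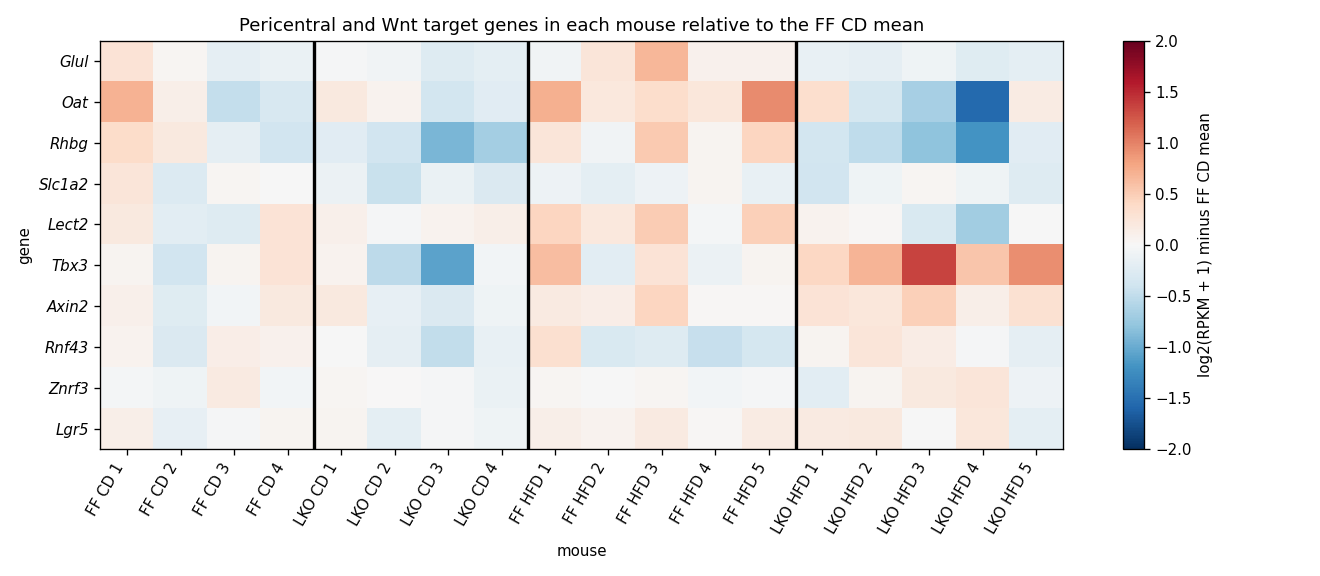
Color gives log2(RPKM + 1) of each of the 10 genes (vertical axis) in each mouse (horizontal axis, group and number) minus the mean of the FF CD mice, red for higher and blue for lower, with black lines between the groups. Oat and Rhbg are at -1.55 and -1.19 in LKO HFD mouse 4, and Tbx3 is at 1.36 in LKO HFD mouse 3.

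The genes most like Glul over the 18 livers were Sprr1a, Gm19705 and Stk39, with Pearson's r of 0.84, 0.79 and 0.78 on log2(RPKM + 1). Those most like Axin2 were 4921531C22Rik, Kdm6b and Csf1, each with r of 0.80. After subtraction of the group means, r was 0.81, 0.68 and 0.84 with Glul and 0.91, 0.58 and 0.57 with Axin2, in the same order. The 6 genes led the 11090 tested genes, apart from the 10 themselves, by r over the 18 livers and were low, with means of 0.566 to 3.20 RPKM.

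The ligands that set the pericentral zone were read next, in a list of Wnt and R-spondin ligands and the proteins that lipidate and carry Wnt. Of 9, 5 passed the filter on low values, and none was called in any comparison in limma, with 3 of 5 at an unadjusted p under 0.05 for diet in FF mice, against 33.7% of all tested genes, and 2 of 5 for genotype under HFD, against 19.3%. Rspo3, the R-spondin of the central vein, was 1.87 ± 0.272 (SD, n = 4) RPKM in FF CD, 2.21 ± 0.340 (SD, n = 4) in LKO CD, 3.05 ± 0.460 (SD, n = 5) in FF HFD and 2.34 ± 0.271 (SD, n = 5) in LKO HFD livers. Rspo3 ranged from 1.62 to 2.24 RPKM in FF CD and from 2.60 to 3.80 RPKM in FF HFD livers. The diet difference of Rspo3 in FF mice was 0.49 (standard error 0.0955, limma adjusted p = 0.00163). The ratio of its mean RPKM was 1.62, and the fold falls below the limit of 1.5 on the log2(RPKM + 1) scale, which understates the change of a gene this low. The genotype difference under HFD was -0.27 (adjusted p = 0.0982).

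Wnt2, a Wnt ligand of liver endothelium, was 0.516 ± 0.331 (SD, n = 4) RPKM in FF CD, 0.450 ± 0.237 (SD, n = 4) in LKO CD, 0.954 ± 0.433 (SD, n = 5) in FF HFD and 0.556 ± 0.156 (SD, n = 5) in LKO HFD livers, with overlap between all groups. Its diet difference in FF mice was 0.36 (limma adjusted p = 0.104). Wnt9b, the other ligand of the central vein, had group means from 0.129 to 0.243 RPKM and was below the filter. Markers of sinusoidal endothelium moved with diet in FF mice, and no list of markers of central vein endothelium was read. Of the 6 sinusoidal markers, 4 were called higher, where 6.60% of all tested genes were called. They were Lyve1 by 1.38, Pecam1 by 1.09, Cdh5 by 0.86 and Clec4g by 0.85 on the log2 scale (limma adjusted p from 0.000825 to 0.0190). The sum of the 6 was 13.7 to 28.6 RPKM in FF CD and 35.8 to 57.7 RPKM in FF HFD livers. Its part in the levels of Rspo3 and Wnt2 was not tested. Other markers called higher with HFD in FF mice were Vsig4 and Adgre1 of Kupffer cells (0.72 and 0.62) and Col3a1 and Col1a1 of stellate cells (1.21 and 1.16).

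No gene of the machinery that receives the signal passed both thresholds in limma. All 10 Wnt receptors, all 8 genes of the β-catenin destruction complex and 8 of 9 signal transducers were tested. For diet in FF mice, 6 of 10 receptors and 1 of 8 genes of the destruction complex had an unadjusted p under 0.05, against 33.7% of all tested genes, and for genotype under HFD 6 of 10 and 0 of 8 did, against 19.3%. Below the fold limit on the log2(RPKM + 1) scale, some genes passed the adjusted p alone and are named after their values were seen. For diet in FF mice these were the Wnt receptor Fzd1 (0.46, adjusted p = 0.00490, ratio of mean RPKM 1.63), the R-spondin receptor Lgr4 (-0.40, adjusted p = 0.0379) and the kinase gene Gsk3a (0.24, adjusted p = 0.0220). Others were Fzd6 for diet in LKO mice (0.34, adjusted p = 0.0403), Lgr4 for genotype under HFD (0.51, adjusted p = 0.0301) and Fzd5 for the difference between the diet effects (0.53, adjusted p = 0.0299). The median differences between LKO and FF mice under HFD were 0.11 for the receptors, 0.047 for the destruction complex and 0.091 for the transducers, beside 0.030 over all tested genes and -0.037 over the 10 genes themselves. None of 6 secreted Wnt inhibitors reached the filter.

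Other Wnt targets were read in a list of 10 genes, of which 8 were tested. An unadjusted p under 0.05 was found for diet in 1 of 8 in FF mice and 4 of 8 in LKO mice, against 33.7% and 22.3% of all tested genes. For genotype under HFD it was 2 of 8, against 19.3%. Tcf7, named after its value was seen, passed the adjusted p alone there (0.32, limma adjusted p = 0.0473). The sole call among the 8 in any comparison was Ccnd1, which encodes cyclin D1 and is also a gene of cell cycle entry. It was higher by 0.94 with HFD in FF mice (standard error 0.308, limma adjusted p = 0.0379), where 6.60% of all tested genes were called. Its mean was 7.90 RPKM in FF CD, 12.3 RPKM in LKO CD, 14.7 RPKM in FF HFD and 21.7 RPKM in LKO HFD livers. The 3 proliferation markers read, Mki67, Top2a and Ccnb1, were all below the filter on low values. Their summed RPKM was 0.225 to 0.283 in FF CD and 0.581 to 1.37 in FF HFD livers. In LKO livers the sum was 0.2315 to 0.462 on CD and 0.229 to 0.955 on HFD. Its part in the level of Ccnd1 was not tested.

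The other zones were read by the same fit. Of 8 other pericentral genes, 2 were called for diet in FF mice, where 6.60% of all tested genes were. Cyp1a2, a P450 of drug and caffeine oxidation, fell by 1.08 and Nr1i3, the nuclear receptor CAR, rose by 0.99 with HFD (limma adjusted p = 6.78e-05 and 0.000746). The diet effect on Cyp1a2 differed between the genotypes by 0.84 (adjusted p = 0.0292). Its genotype difference was -0.47 under CD and 0.37 under HFD, neither called (limma adjusted p = 0.312 and 0.1305). For genotype under HFD none of the 8 was called in limma, 2 had an unadjusted p under 0.05, against 19.3% of all tested genes, and their median difference was 0.029.

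Of 12 periportal genes, 3 were called for diet in FF mice, where 6.60% of all tested genes were: Cps1, the first enzyme of the urea cycle, at -1.24, Cdh1, which encodes E-cadherin, at -0.99, and Hsd17b13, a lipid droplet protein, at 0.88. In LKO mice Sds, serine dehydratase, fell by 1.09 with HFD (limma adjusted p = 0.0337). Between the genotypes under HFD, Cdh1 was the 1 called gene of the 12, where 2.07% of all tested genes were called, higher in LKO livers by 0.91 (adjusted p = 0.0460), and the diet effects on Cdh1 and Hsd17b13 differed between the genotypes by 1.68 and -0.78 (adjusted p = 0.0188 and 0.0228). Under CD the genotype difference was -0.77 for Cdh1 and 0.57 for Hsd17b13, neither called (limma adjusted p = 0.42 and 0.101). The genotype difference of Hsd17b13 under HFD was -0.22 (adjusted p = 0.3296). The median genotype difference of the 12 under HFD was -0.22. Of the 12, 6 had an unadjusted p under 0.05 in limma, in both directions, against 19.3% of all tested genes.

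Of 4 midlobular genes, 3 were called for diet in FF mice, where 6.60% of all tested genes were. Igfbp2 and Hamp fell by 1.596 and 1.53 and Cyp8b1 rose by 0.93 (limma adjusted p = 0.00146, 0.00479 and 0.0102). Hamp2 was lower by 2.71 with HFD in LKO mice and by 2.46 in LKO than in FF mice under HFD, and the diet effects of the genotypes differed by -3.69 (limma adjusted p = 0.0108, 0.00403 and 0.00427). For genotype under HFD all 4 had an unadjusted p under 0.05 in limma, against 19.3% of all tested genes. Hamp2 and Cyp8b1 were lower and Hamp and Igfbp2 higher in LKO livers. Hamp and Hamp2 are near-identical copies, so how their reads were divided is uncertain.

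**Figure D4:**
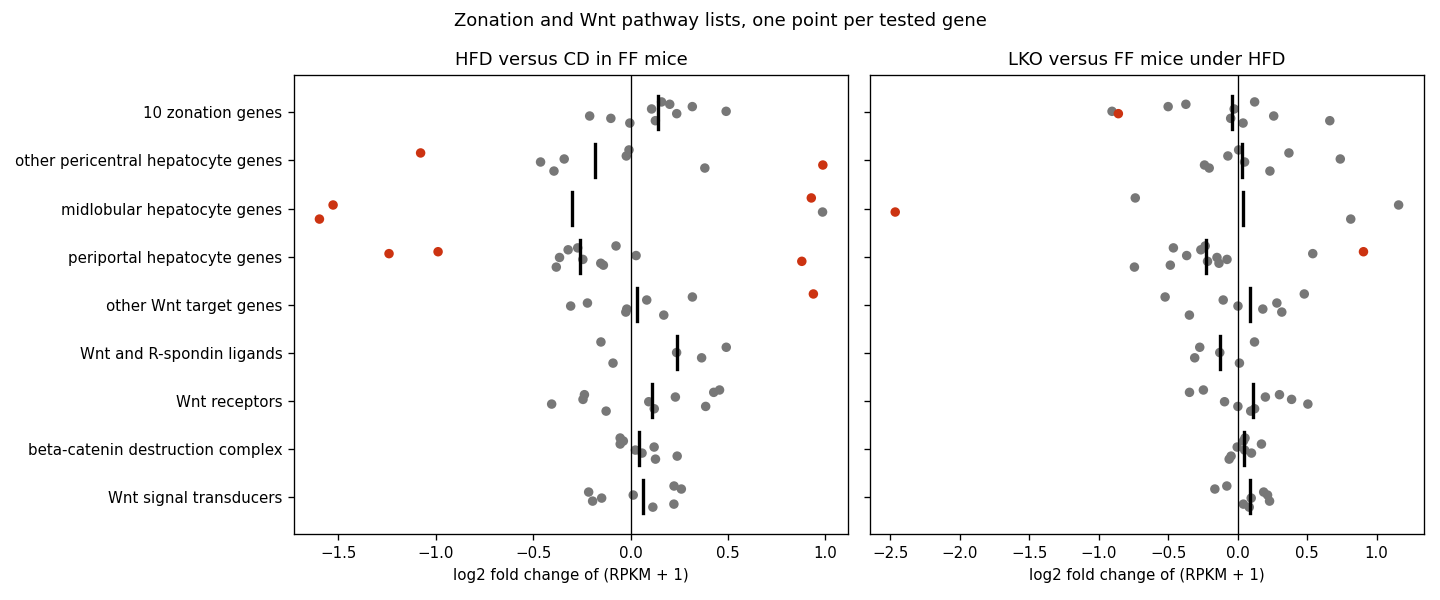
Log2 fold changes of RPKM + 1 (horizontal axes) for diet in FF mice (left) and genotype under HFD (right), with 1 point per tested gene of each list, red for genes past both thresholds and a black line for the median of the list. The 10 zonation genes hold no red point on the left and 1 on the right, Rhbg at -0.86, and the lists of ligands, receptors, destruction complex and transducers hold none.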

How the data were processed

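Liver RNA of 18 mice in 4 groups was measured, and groups were taken from the sample labels. The authors deposited RPKM values for each mouse, and the submitters' processing notes name HISAT2 2.0.4, Partek and the mm10 build. The gene annotation, counting, use of strand and treatment of multimapping reads are not given in the sources used here. The labels name a small RNA library kit together with a standard RNA-seq protocol. Values were used as deposited, and each table holds 1 RPKM column. Depth was recovered from the RPKM of a single read in single-exon genes (27 to 47 genes per mouse). Reads of Rhbg, Znrf3, Axin2, Lgr5 and Ppp6r3 rest on the shortest gene length that made them whole within 0.1 of a read in all 18 mice. Wholeness is thus how the length was chosen and no check of it. These lengths were 1912, 7658, 4257, 4709 and 4974 bases, against annotated exon lengths of 1937, 7893, 5506, 10264 and 9378 bases. No such length was found for Rnf43.

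The 4 groups entered a single linear model per gene (R 4.3.3, limma 3.58.1, with an eBayes trend on mean expression), fitted to log2(RPKM + 1) of 11090 genes whose mean reached 0.5 RPKM. Tests were two-sided, with Benjamini-Hochberg adjustment over all tested genes, and genes past a fold of 1.5 and an adjusted p of 0.05 were called. The p-values measure the spread between these mice, 1 library each. The pipeline was tested on simulated data.

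The members and all lists were chosen with earlier results of these data known. Named genes are the 10 members, Ppp6r3, the called genes of each other list (at most 4 per list and comparison), Wnt2, Wnt9b and Rspo3, and the 3 genes most correlated with Glul and with Axin2. Marker lists are given as sums where they moved with a result, and Alb, Ttr, Tat, Dcn, Mki67, Top2a and Ccnb1 were named after their values were seen. Positions of genes are those of GENCODE vM21 (GRCm38), and promoter sequences are from RefSeq (GRCm38.p6). Settings tried in addition were the adjusted p without a fold limit, a block for the replicate number, a model of only the groups compared, median centring, quantile normalization, scaling to equal sums, a minimum mean of 1 RPKM or none, a pseudocount of 0.1, and the omission of each mouse. Tables and figures were made with Python 3.11.15, pandas 2.3.3, scipy 1.17.1 and matplotlib 3.10.9.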

Additional observations from a re-analysis of the deposited data

Results flagged for a closer look

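In each group of 4 or 5 mice the highest and lowest liver were compared with the nearest of the others, over 40 combinations of gene and group, of which chance alone sets about 1 in 20 apart. In the first of 2 such cases, Rnf43 was 5.47 RPKM in FF HFD mouse 1 and 2.79 to 3.33 RPKM in the other 4 FF HFD mice. The gap was 0.798 of the range of the group, above the critical value of 0.71 for 5 samples. That liver also had the highest Tbx3 of its group, at 12.0 RPKM. In the second, Znrf3 was 1.53 RPKM in FF CD mouse 3 and 1.12 to 1.19 RPKM in the other 3 FF CD mice, a gap of 0.837 of the range, above the critical value for 4 samples.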

How the results depend on the processing

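Of the 50 differences of the 10 genes, 38 kept their direction under all 9 other settings and without each of the 18 mice in turn. Some of these settings cannot change a difference, only its p-value or call. They are the adjusted p alone, another minimum mean and a model of only the groups compared. The replicate block is also among them for genotype and for the difference between the diet effects. There the 2 genotypes hold the same replicate numbers. Leaving out a mouse of a group outside the comparison cannot change a difference either. The number of genes called for diet in LKO mice was 0 with only the groups compared in the fit, and for genotype under HFD it was 2 (Oat and Rhbg) with quantile normalization. With mice left out in turn, the counts ranged from 0 to 1 for diet in LKO mice, from 1 to 2 for genotype under HFD and from 0 to 2 for the difference between the diet effects, and were 0 throughout for diet in FF mice and genotype under CD. Rhbg was called for genotype under HFD in every setting and without each mouse. Ppp6r3 ranged from -1.09 to -0.97 under CD and from -0.75 to -0.70 under HFD with a mouse left out.

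Small differences changed sign. With quantile normalization these were Glul for diet in LKO mice (0.017), Lgr5 for diet in FF mice (-0.034) and Znrf3 for diet in LKO mice (-0.055, and -0.034 with median centring). Znrf3 for diet in FF mice was 0.046 after rescaling. With a mouse left out the ranges that crossed 0 were, for diet in FF mice, -0.030 to 0.055 (Znrf3), for diet in LKO mice, -0.070 to 0.0057 (Glul) and -0.19 to 0.075 (Rhbg), and for the difference between diet effects, -0.0010 to 0.11 (Lgr5). For genotype under CD they were -0.24 to 0.15 (Oat), -0.017 to 0.16 (Lect2) and -0.053 to 0.033 (Znrf3), and for genotype under HFD, -0.062 to 0.044 (Lgr5), -0.097 to 0.0071 (Slc1a2) and -0.013 to 0.10 (Znrf3). The cause was not tested.

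Over all tested genes, mice with the same replicate number in the labels were little more alike than others. Over 25 same-numbered pairs the correlation of deviations had a median of 0.054, against -0.012 for other pairs. Of 18 mice, 5 were most like one of their own number. With the replicate number as a block, 2 genes were called for genotype under HFD, Rhbg (-0.86) and Oat (-0.90, limma adjusted p = 0.0118), and Znrf3 for diet in FF mice was 0.015. The standard error of Oat was 0.176 with the block and 0.292 without it. Whether single genes share a structure by replicate number was not tested.

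At 19 reads in the lowest liver, Rhbg is the member whose level the depth limits most. Group means rest on 4 or 5 livers, and a difference that missed the threshold is not shown to be absent.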
